A study of Mus musculus with 6 samples.

Results

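The cells described here are CD8 T cells that carried Gzmk transcripts, few or no Ly6c2 transcripts and no detected Havcr2 or Tcf7, in tumours from mice with and without Ctcf in regulatory T (Treg) cells. Members were chosen by their counts of 9 genes. A barcode needed 300 or more genes, 500 or more UMIs and a mitochondrial share of 10% or less, and had at least 1 productive T-cell receptor beta chain. It also had at least 2 UMIs of Cd8a and Cd8b1 together and no Cd4 UMI, at least 1 Gzmk UMI, at most 1 Ly6c2 UMI, no Havcr2 or Tcf7 UMI, and not both Mki67 and Top2a. This gate held 485 cells, which was 5.02% of the 9664 CD8 T cells with a receptor beta chain and came from 39424 kept barcodes in 6 samples. The gate sets the levels of its 9 genes, so those levels are given as descriptions without a test.

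The study profiled tumour-infiltrating CD45+ cells, sorted alive by flow cytometry from subcutaneous tumours of unmodified MC38, a mouse colon carcinoma line, at day 25. Single cells were captured on the 10x Chromium 5′ platform, and each sample gave a gene expression library and an enriched T-cell receptor library. The 3 control samples (ctr) came from mice labelled as having Ctcf intact in Treg cells, and the 3 knockout samples (cko) from tamoxifen-inducible mice labelled as lacking Ctcf in Treg cells. The labels call the 3 samples of a group biological replicates. The Cre driver, the tamoxifen dose and schedule, whether controls received tamoxifen, and the age of the mice are not given in the sources used here. The CD8 T cells of both groups carry no targeted loss of Ctcf by these labels, so each comparison between ctr and cko asks how these cells differ in tumours where Treg cells lack Ctcf.

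Granzyme K, encoded by Gzmk, is a granule serine protease of CD8 T cells and NK cells. In tumours and inflamed tissues it marks CD8 T cells that also tend to express the transcription factor Eomes and the chemokine Ccl5, and that are often regarded as lying between memory-like and terminally exhausted cells. Havcr2 encodes Tim-3, a checkpoint receptor of terminally exhausted cells, Tcf7 encodes the transcription factor of stem-like cells, and Ly6c2 encodes a surface protein raised on effector and memory CD8 T cells and by interferon.

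Libraries held 6125 to 7577 barcodes and 45322797 to 55515267 UMIs. Between any 2 of the 6 libraries, 41 to 81 barcodes were the same. The members of a sample were 37 to 144 cells and their summed counts 278016 to 1015329 UMIs. The libraries cko replicate 1 and cko replicate 3 stood apart from all others in their receptors. Of 49 members of cko replicate 1 with both receptor chains, 43 (87.8%) had a nucleotide-identical clonotype in cko replicate 3, and of 53 in cko replicate 3, 41 (77.4%) had one in cko replicate 1. No other ordered pair of libraries shared more than 1 member's clonotype. These 2 libraries had 71 barcodes in common, within the range of the other pairs. The labels name them as separate replicates, and both are used as such. As an alternative, the 2 were added together as 1 sample. This was done for the share of members, the gene tests on members and the clonotype measures tested between ctr and cko. Whether these 2 libraries are independent samples was not tested, and their shared clonotypes give reason for doubt. Each SD, n = 3 and p-value for cko that keeps them apart takes them as independent. If they are not, cko has fewer than 3 independent samples, and those values overstate the certainty. Automatic doublet calling marked 0.403% of all barcodes, which is no working call, so no barcode was removed for it, and 14 members had 2 beta chains.

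The receptor that recurred most often among the members is shown first, since it links 5 of the 6 samples. It joined a Trav16-family segment and Traj43 (chr14:54174742-54174798, + strand, GRCm38) in the alpha chain with Trbv12-1 (chr6:41113550-41114067, + strand) and Trbj2-5 (chr6:41543453-41543501, + strand) in the beta chain. Trav16 lies at chr14:53743104-53743705, Trav16n at chr14:53351028-53351621 and Trav16d-dv11 at chr14:53047287-53047821, all on the + strand, and these copies are so alike that the V name of the alpha chain is uncertain. The CDR3 of the most frequent such clonotype in each sample is given 5′ to 3′ as deposited, with the end codons included. Capitals mark the positions that differ between samples.
alpha, ctr replicate 1: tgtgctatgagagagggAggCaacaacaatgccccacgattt
alpha, ctr replicates 2 and 3: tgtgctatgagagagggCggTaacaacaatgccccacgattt
alpha, cko replicates 1 and 3: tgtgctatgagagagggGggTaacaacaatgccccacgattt
alpha, cko replicate 2: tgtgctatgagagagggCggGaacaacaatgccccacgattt
beta, ctr replicate 1: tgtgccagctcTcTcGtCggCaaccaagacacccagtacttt
beta, ctr replicate 2: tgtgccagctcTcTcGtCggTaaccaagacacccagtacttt
beta, ctr replicate 3: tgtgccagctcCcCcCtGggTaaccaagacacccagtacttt
beta, cko replicates 1 and 3: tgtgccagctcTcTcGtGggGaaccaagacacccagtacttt
beta, cko replicate 2: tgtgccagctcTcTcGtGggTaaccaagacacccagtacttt
Each CDR3 was 42 bases long and encoded 14 residues. The alpha chains differed at 2 positions, and all 4 nucleotide versions encoded the same residues. The beta chains differed at 5 positions in 5 versions, which encoded 2 protein versions that differed at 2 residues. One protein version was thus encoded by different nucleotide sequences in different samples, while cko replicates 1 and 3 had the same nucleotide sequences in both chains.

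The members carried T-cell transcripts throughout. Cd3e was detected in 100% of them in every sample, Nkg7, a granule protein of cytotoxic cells, in 98.1 to 100%, and Ccl5 in 83.8 to 95.0%. Ccl5 is a weak mark of identity here, because it was also detected in 51.6 to 65.5% of Lyz2-high cells without a receptor, and these cells had a median of 6427.5 to 8987.5 UMIs against 4976 to 7125 in members. Gzmk was detected in 0.181 to 0.537% of those Lyz2-high cells and in 2.32 to 5.52% of CD4 T cells. Gzmk itself did not set the members apart from other CD8 T cells, since it was also detected in 46.4% of Ly6c2-positive, 45.8% of Havcr2-positive and 58.2% of cycling CD8 T cells. Cxcr3, the receptor for interferon-induced chemokines and 1 of the 4 markers proposed for these cells, was detected in 10.4, 51.4 and 18.1% of members in ctr replicates 1 to 3, and in 36.5, 22.4 and 33.3% in cko replicates 1 to 3. The range in Ly6c2-positive cells was 28.0 to 49.4%, so Cxcr3 did not mark the members.

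Many members lay near the edge of the gate. A single Gzmk UMI was found in 166 members (34.2%), and 148 (30.5%) had at least 4, with a maximum of 17. No Ly6c2 UMI was found in 377 members (77.7%) and 1 in the other 108 (22.3%). Just outside the gate, 61 cells with Gzmk had 2 Ly6c2 UMIs, and 831 cells that met the other conditions had no Gzmk UMI. The gate is thus a range along Gzmk and Ly6c2 detection and not a separated cluster.

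Markers of other cells were read as sums over marker lists. The summed macrophage markers were 225 to 951 CPM (counts scaled to a fixed total per summed population) in ctr members and 79.1 to 489 CPM in cko members, against 20080 to 36610 CPM in Lyz2-high cells. Natural killer markers summed to 353 to 697 CPM in ctr and 396 to 798 CPM in cko members. The Treg marker list summed to 1092 to 1239 CPM in ctr and 1421 to 1870 CPM in cko members, while Foxp3, the defining Treg factor, had 2 UMIs in all 485 cells. Its part in the differences between ctr and cko was not tested. The MHC class II and dendritic list summed to 222 to 2038 CPM in ctr members, highest in ctr replicate 2, and 162 to 345 CPM in cko members. In Lyz2-high cells it summed to 37620 to 56230 CPM. Of that list Clec9a, Cd209a and Flt3 were at 0 in members. The tumour or epithelial list summed to 77.1 to 89.7 CPM in ctr and 70.5 to 83.4 CPM in cko members. Of that list Krt8, Krt19, Krt7 and Krt20 were at 0, and Epcam had 15 UMIs.

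Members were a smaller share of CD8 T cells in every cko sample than in any ctr sample. The share was 8.40% (95% Wilson interval 7.14 to 9.86), 4.40% (3.21 to 6.01) and 10.9% (9.30 to 12.6) in ctr replicates 1 to 3. It was 2.33% (1.78 to 3.04), 3.95% (3.07 to 5.08) and 2.73% (2.12 to 3.49) in cko replicates 1 to 3. All intervals cover counting error only. The groups did not overlap, but the intervals of ctr replicate 2 and cko replicate 2 did. The means were 7.89% ± 3.26 and 3.00% ± 0.848 (SD, n = 3 each), a difference of -4.89 percentage points with a two-sided exact permutation p of 0.1, the smallest that 3 samples against 3 allow.

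This difference was smaller after thinning to an equal depth. Cells of the cko samples were shallower: the median member held 4976, 5396 and 5070 UMIs there, against 6731.5, 6883 and 7125 UMIs in ctr. With every cell thinned to 2000 UMIs, which left out 111 of 9664 cells, the shares were 9.53, 5.96 and 14.1% in ctr and 6.17, 8.18 and 6.09% in cko samples. The groups then overlapped, and the difference was -3.06 percentage points (exact permutation p = 0.4). Thinning applies the whole gate to the remaining UMIs, so cells that lose their Havcr2, Tcf7 or Ly6c2 UMIs can enter it. The part of depth in the difference was not tested. With cko replicates 1 and 3 added together the difference was -4.65 percentage points (exact permutation p = 0.2). With at least 2 Gzmk UMIs per member it was -3.23 percentage points (exact permutation p = 0.2), and the groups overlapped, since cko replicate 2 at 2.79% lay above ctr replicate 2. As a share of all kept barcodes, members were 2.09, 0.633 and 1.98% in ctr and 0.761, 0.947 and 0.866% in cko samples, which overlapped (exact permutation p = 0.4).

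**Figure D1:**
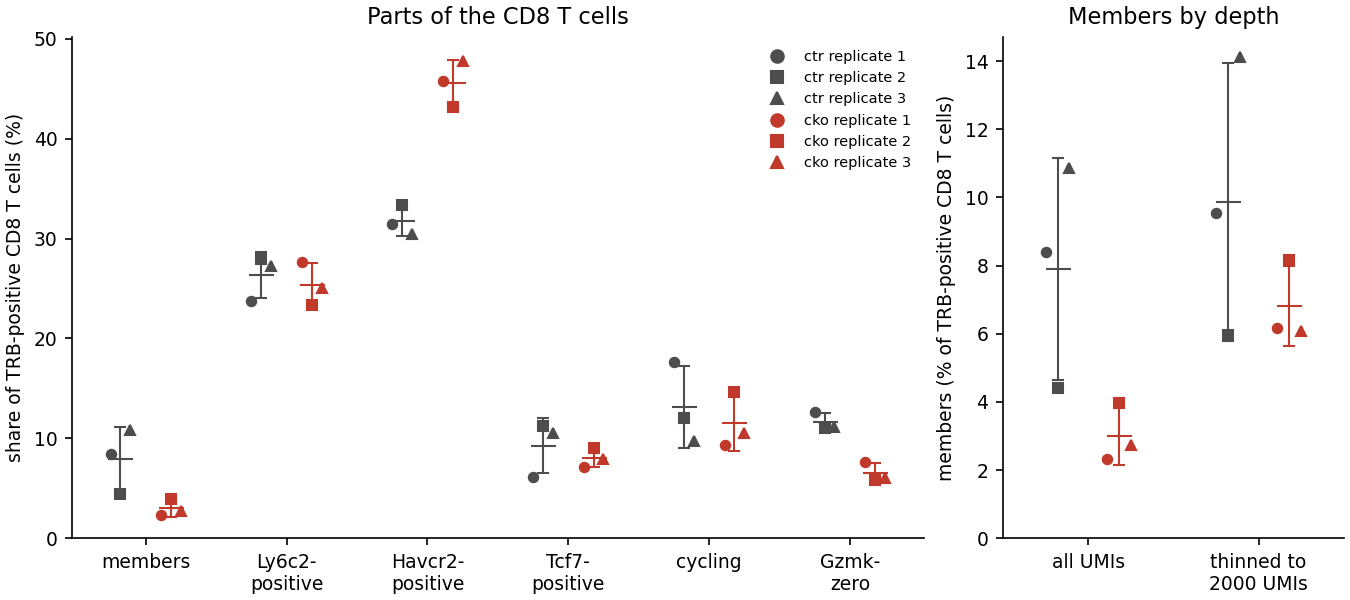
Shares of CD8 T cells (percent, y axis) per sample for the 6 CD8 populations, and for the members at all UMIs and after thinning to 2000 UMIs; points are samples, lines group means and error bars SDs. The ctr and cko samples do not overlap for members at all UMIs (4.40 to 10.9% against 2.33 to 3.95%) and overlap after thinning.

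The other CD8 populations of the same gate give the setting. Havcr2-positive cells were 31.8% ± 1.45 of CD8 T cells in ctr and 45.6% ± 2.33 in cko samples, and cells that met every condition but Gzmk were 11.6% ± 0.916 and 6.50% ± 0.996 (SD, n = 3 each; exact permutation p = 0.1 for both, no overlap). Ly6c2-positive cells were 26.3% ± 2.30 and 25.4% ± 2.18 (exact permutation p = 0.7).

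Members were next compared with Ly6c2-positive CD8 T cells of the same samples, which differ from them in the gate by Ly6c2 and in Gzmk by selection. Of 8186 genes tested, 225 (2.75%) differed at an adjusted p under 0.05 (edgeR quasi-likelihood test with the sample as block, Benjamini-Hochberg adjustment), 66 of them higher in members (0.806%) and 159 lower (1.94%). Without ctr replicate 3 the count was 130, and by DESeq2 it was 140. Genes that vary with Gzmk or Ly6c2 from cell to cell differ here by selection of the cells. The genes named below were the 8 with the largest difference in each direction among those that differed in the same direction in 6 of 6 samples, as 7.23% of all genes did.

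Eomes, the T-box factor of memory and exhausted CD8 T cells, had its highest mean in members among the 6 populations, though not apart from Tcf7-positive cells. Its level was 48.5, 54.6 and 59.1 CPM in members of ctr replicates 1 to 3 and 86.3, 111 and 106 CPM in those of cko replicates 1 to 3. The mean over the 6 samples was 77.6 ± 27.3 CPM (SD) in members, 65.4 CPM (43.0 to 95.6 CPM) in Tcf7-positive cells and 27.5 CPM in Ly6c2-positive cells. The members' range overlapped that of no Ly6c2-positive sample, and the difference from Ly6c2-positive cells was 1.40 on the log2 scale (SE 0.15, adjusted p = 3.42e-08, edgeR). Tox, a nuclear factor of the exhaustion program, was 1.07 higher (SE 0.10, adjusted p = 1.06e-09, edgeR), with a mean of 213 CPM in members and 101 CPM in Ly6c2-positive cells. Ikzf2, which encodes the Ikaros-family factor Helios, was 0.79 higher and Sh2d1a, which encodes the signalling adaptor SAP, 0.73 higher. Itga4, an integrin chain, was 0.57 higher, Sult2b1, a sulfotransferase, 1.09 higher, and Osgin1 0.69 higher. In cells that met every condition but Gzmk, Tox had means of 209 CPM in ctr and 79.5 CPM in cko samples, without a test. The Tox means in members were 254 and 172 CPM, so in ctr samples the 2 populations lay closer together.

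Ccl5, a chemokine that draws T cells and myeloid cells, was 8465, 8603 and 9856 CPM in ctr members and 14650, 10620 and 13260 CPM in cko members. It was higher in members than in Ly6c2-positive cells of the same sample in 6 of 6 samples, with a log2 difference of 0.92 (SE 0.11, adjusted p = 0.0174, edgeR). The call was lost without cko replicate 1, without cko replicate 3 and with both added together (adjusted p up to 0.0825). The mean was 10910 ± 2530 CPM in members, 5809 CPM in Ly6c2-positive, 6708 CPM in Havcr2-positive and 1951 CPM in cycling cells. Cxcr3 was spread so widely among members, from 23.2 to 155 CPM, that its mean of 87.8 ± 57.7 CPM did not stand apart from the mean of 105 CPM in Ly6c2-positive cells.

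**Figure D2:**
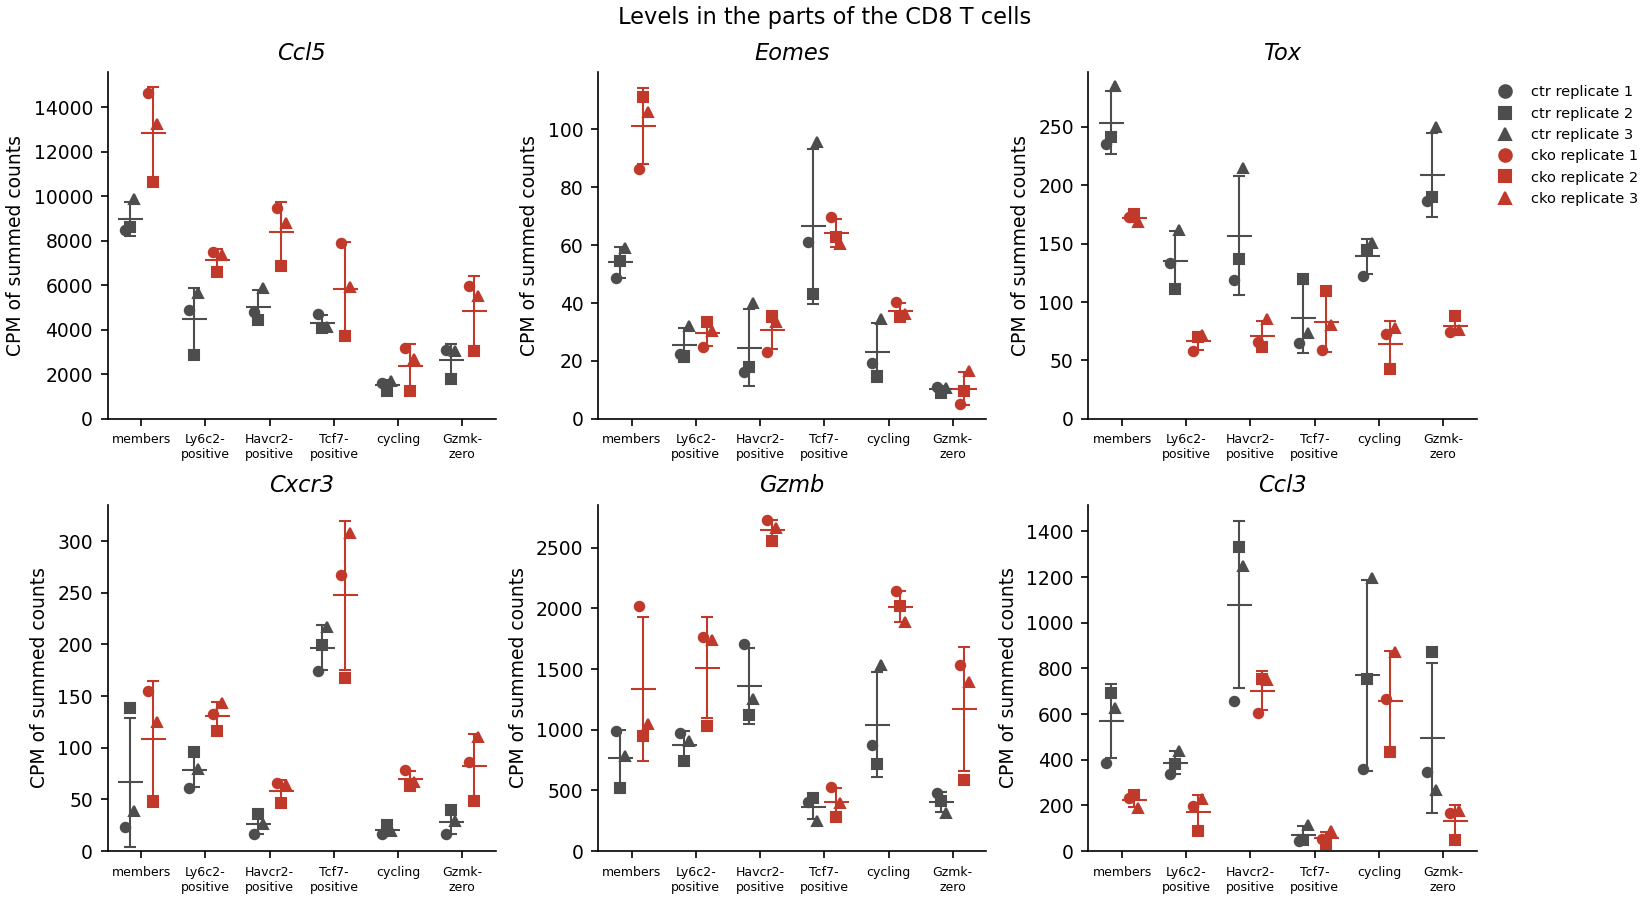
Level of 6 genes (CPM of the summed cells, y axis) in each of 6 CD8 populations, 1 point per sample coloured by group, with the group mean (line) and SD (bar). Eomes and Ccl5 are highest in the members on average (77.6 and 10910 CPM), Cxcr3 spreads from 23.2 to 155 CPM among the members, and Gzmb is higher in Havcr2-positive cells.

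Among the genes lower in members than in Ly6c2-positive cells, most of the 8 with the largest difference are known from myeloid and antigen-presenting cells. Lyz2 was lower by -2.76 on the log2 scale, Apoe by -3.01, Cxcl2 by -3.44, Il1b by -2.57, Cd74 by -2.20 and H2-Eb1 by -2.19 (all with adjusted p under 0.05, edgeR). The calls of Cxcl2 and H2-Eb1 held in all 10 alternatives, while that of Apoe was lost in 7, Cd74 in 6, Il1b in 5 and Lyz2 in 4, in each case also without cko replicate 1, without cko replicate 3 and with both added together (adjusted p up to 0.22). In the macrophage marker list 0 of 13 genes tested were higher and 9 lower, and in the MHC class II and dendritic list 0 of 7 higher and 5 lower, against a median over all genes of 0.009. The summed macrophage markers were 1004 to 2900 CPM in ctr and 659 to 860 CPM in cko Ly6c2-positive cells, above the members of the same group, and their part in the other differences was not tested. Ccl1, a chemokine gene of activated T cells, was lower by -5.15, and Ifitm1, an interferon-induced gene, by -2.22. The Ifitm1 call was lost in 5 of 10 alternatives, among them those without cko replicate 1 and without cko replicate 3 (adjusted p up to 0.107).

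Type I interferon response genes were lower in members than in Ly6c2-positive cells. Of 23 tested genes 0 were higher and 7 lower, with a list median of -0.42. Usp18, which restrains interferon receptor signalling, was lower by -0.81 and Oas3, an antiviral sensor, by -0.99. Ly6c2 is itself raised by interferon, and the gate selects against it. Among 19 cytotoxicity genes, Prf1, which encodes perforin, was higher by 0.29, while the killer-cell receptors Klrk1 (-0.74), Klrc1 (-0.42) and Klrd1 (-0.24) and the protease Ctsw (-0.23) were lower. Of 19 stem-like and memory genes only Cd27, a costimulatory receptor, was higher, and Id3, Il7r and Satb1 were lower, Id3 by -2.93 and Il7r, the interleukin-7 receptor, by -0.69. Of 20 checkpoint and exhaustion genes 4 were higher (Tox, Ikzf2, Cd38 and Adgrg1) and 0 lower.

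Against Havcr2-positive cells of the same samples, 635 of 8917 genes differed (7.12%, edgeR), 201 higher in members (2.25%) and 434 lower (4.87%), and 11.7% of all genes differed in the same direction in 6 of 6 samples. Without ctr replicate 1 the count was 412. All members carry Gzmk by the gate, against 45.8% of Havcr2-positive cells. Genes that vary with Gzmk, Havcr2, Tcf7 or Ly6c2 from cell to cell thus differ here by selection of the cells too. Eomes was higher in members, with a log2 difference of 1.42 (SE 0.15, adjusted p = 3.55e-08, edgeR). Tox was higher by 0.94, Ikzf2 by 0.80, Sh2d1a by 0.78 and Ccl5 by 0.71 (SE 0.04, adjusted p = 3.88e-15, edgeR). Cd7, a surface receptor of T and NK cells, was higher by 1.40, from 28.0 CPM in Havcr2-positive cells to 72.8 CPM in members on library sizes scaled by the TMM method. Cxcr3 was higher by 0.92 (SE 0.18, adjusted p = 0.00446, edgeR), although in cko replicate 2 the log2 ratio of members to Havcr2-positive cells was 0.0103. Without cko replicate 3 the adjusted p for Cxcr3 was 0.0528.

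The cytotoxic genes differed in both directions from Havcr2-positive cells, with 3 of 19 tested higher and 8 lower. Gzmb, the granzyme of fully armed killer cells, was lower in members by -0.96 and Prf1 by -1.15. Chemokine genes split likewise, with 3 of 17 higher and 6 lower, among the latter Ccl3 by -1.23. None of 19 genes of the T-cell receptor response was higher and 7 were lower, among them Egr2 by -2.47, an early growth response factor. Checkpoint and exhaustion genes divided into 3 higher and 5 lower of 20, the lower ones being Lag3 (-0.35), Nr4a3 (-0.72), Rgs16 (-0.58), Irf4 (-0.84) and Nr4a1. None of 22 hypoxia and glycolysis genes was higher and 12 were lower. Interferon genes did not go the way they did against Ly6c2-positive cells. Of 23 tested type I interferon response genes 3 were higher and 1 lower, with a list median of 0.117. In the interferon gamma response list 4 of 25 were higher and 0 lower, with a median of 0.153.

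Of 19 stem-like and memory genes 5 were higher in members than in Havcr2-positive cells and 2 were lower. The higher ones were Slamf6 (1.39), a surface receptor of stem-like exhausted cells, Klf3 (1.11), S1pr1 (1.06), the receptor for exit into blood and lymph, Lef1 (0.87) and Bcl2 (0.55), a survival factor. Macrophage genes were lower in 7 of 13 and MHC class II and dendritic genes in 7 of 7 tested, and the summed macrophage markers of Havcr2-positive cells were 944 to 2817 CPM. Depth moved with this comparison, since Havcr2-positive cells had a median of 8290 UMIs and members 6268, and its part in the result was not tested.

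Between ctr and cko, the levels of the gate's own genes in members are a description. Gzmk was 388, 366 and 423 CPM in ctr and 647, 581 and 581 CPM in cko members. Cd8a was 1354 and 1350 CPM on average in ctr and cko, and Ly6c2 28.1 and 53.7 CPM, on TMM-scaled library sizes. Cko members thus held more Gzmk per UMI, at a lower depth per cell. This was not particular to members. Mean Gzmk in ctr and cko samples was 157 and 258 CPM in Ly6c2-positive and 142 and 217 CPM in Havcr2-positive cells. It was 168 and 296 CPM in Tcf7-positive and 144 and 306 CPM in cycling cells.

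Ctcf, the gene targeted in Treg cells, was read in members as a check on cells that the labels do not describe as targeted. It was 65.7, 68.4 and 67.5 CPM in ctr and 79.6, 88.1 and 83.7 CPM in cko members (TMM-scaled, as all levels in the comparison between ctr and cko below). The groups did not overlap and cko was higher, but the difference did not pass the test (log2 0.33, SE 0.21, adjusted p = 0.524, edgeR). None of the 10 genes tested in the list of Ctcf and cohesin genes was called. The list measures transcripts, and reads outside the deleted part of a gene, which is not named in the sources used here, would not show a deletion.

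Of 4374 genes tested in members, 89 differed between cko and ctr at an adjusted p under 0.05 (2.03%, edgeR), 45 higher in cko (1.03%) and 44 lower (1.01%). Without TMM scaling 68 were higher and 35 lower. Groups without overlap were found for 20.5% of the tested genes. The count rested on the samples used: it was 18 without cko replicate 3, 35 without cko replicate 1, 49 without ctr replicate 3 and 158 without ctr replicate 2. With cko replicates 1 and 3 added together it was 74, of which 60 were among the 89. Of the named genes called, Cxcr4, Eomes, Hspa1b, Nr4a2 and Tox lost their call in that fit, and the others kept it. The shallower cko members and their lower macrophage marker sums, given above, moved with this comparison, and their part was not tested. In the MHC class II and dendritic list 0 of 5 tested genes were called, with a median of -2.06. The count of calls was 39 with at most 5 members of a clonotype per sample and 27 with at least 2 Gzmk UMIs per member.

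Immediate-early and stress genes were among those that fell. Fos, a subunit of the transcription factor AP-1, was 624, 735 and 545 CPM in ctr and 140, 144 and 159 CPM in cko members. Every cko sample lay below every ctr sample, and the difference was -2.09 on the log2 scale (SE 0.17, adjusted p = 9.21e-07, edgeR). Jun, its partner in AP-1, was 1283, 903 and 1061 CPM in ctr and 280, 388 and 234 CPM in cko members, again with no overlap (log2 -1.85, SE 0.19, adjusted p = 4.88e-05, edgeR). Hspa1b, an inducible Hsp70 chaperone, fell from 1903, 1580 and 2723 CPM to 686, 355 and 634 CPM (log2 -1.90, adjusted p = 0.0355, edgeR). The Hspa1b call was lost in 6 of 14 alternatives, among them those without ctr replicate 1, cko replicate 1 or cko replicate 3 (adjusted p up to 0.197). Of the 21 tested genes of the dissociation stress list, which holds genes known to rise when tissue is digested and handled, 0 were higher and 12 lower. They were Fos, Fosb, Jun, Atf3, Egr1, Zfp36, Dusp1, Hspa1b, Hsph1, Hspe1, Dnajb1 and Hsp90ab1, and the list median was -0.824 beside an all-gene median near 0.

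The same list was lower in cko in other cells of these tumours. Its summed level was 18830 to 23390 CPM in ctr and 12070 to 13270 CPM in cko members. In Lyz2-high cells without a receptor it was 27890 to 30050 and 19630 to 22760 CPM, and in Havcr2-positive CD8 T cells 17690 to 22450 and 12750 to 14730 CPM. The groups did not overlap in any of these populations. The part of tissue handling in these differences was not tested, and all 3 cko libraries were on the lower side.

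Myc, a driver of growth and metabolism in activated T cells, was 111, 151 and 103 CPM in ctr and 22.7, 14.7 and 22.3 CPM in cko members. The highest cko sample was far below the lowest ctr sample, and the difference was -2.55 on the log2 scale (SE 0.29, adjusted p = 5.9e-05, edgeR). Summed counts of the members were 278016, 359829 and 368571 UMIs in cko replicates 1 to 3, so the cko levels of Myc rest on few UMIs. Among genes outside the naming rule, picked after their values were seen, Nme1, Fbl, Ptma and Eif4a1, which serve nucleotide supply, ribosome assembly and translation, were lower by -0.90, -0.79, -0.68 and -0.74. In the list of T-cell receptor response genes 2 of 15 tested, Myc and Egr1, were lower and 0 higher. Nr4a2, an orphan nuclear receptor induced by receptor signalling, was 882, 554 and 920 CPM in ctr and 371, 470 and 427 CPM in cko members, without overlap (log2 -0.90, SE 0.18, adjusted p = 0.0122, edgeR). The Nr4a2 call was lost in 7 of 14 alternatives, among them those without ctr replicate 3, cko replicate 1 or cko replicate 3 (adjusted p up to 0.223).

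Zfp683, which encodes the residency factor Hobit, was 40.1, 65.0 and 46.1 CPM in ctr and 7.58, 11.7 and 5.58 CPM in cko members. The groups did not overlap (log2 -2.48, SE 0.43, adjusted p = 0.00618, edgeR), but the cko levels of Zfp683 also rest on few UMIs. The residency list as a whole did not move one way: of 12 tested genes, Cxcr6, a chemokine receptor of resident cells, and Hopx, a homeodomain protein, were higher in cko, and Zfp683 alone was lower. Cxcr6 was 529, 578 and 704 CPM in ctr and 1050, 1104 and 795 CPM in cko members (log2 0.70, SE 0.16, adjusted p = 0.0266, edgeR). Its call was lost in 7 of 14 alternatives, among them those without ctr replicate 1 and without each cko replicate (adjusted p up to 0.15), and that of Zfp683 without cko replicate 3 (adjusted p = 0.0503). Itgae, the CD103 integrin chain, did not pass the filter on low counts, with 2, 3 and 2 UMIs in ctr and 0 in each cko sample.

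Receptors for migration and cytokines were among the genes that rose. Gpr183, the oxysterol receptor that guides cells within lymphoid tissue, was 79.0, 95.8 and 57.9 CPM in ctr and 224, 194 and 193 CPM in cko members, without overlap (log2 1.44, SE 0.20, adjusted p = 8.4e-04, edgeR). The Gpr183 call was lost in 1 of 14 alternatives, with at least 2 Gzmk UMIs per member (adjusted p = 0.228, edgeR). Cxcr4, the receptor for Cxcl12, was 23.1, 13.7 and 7.50 CPM in ctr and 37.9, 47.0 and 50.2 CPM in cko members (log2 1.61, adjusted p = 0.0456, edgeR). The Cxcr4 call was lost in 6 of the 11 alternatives in which it was tested, among them those without ctr replicate 3 and without each cko replicate (adjusted p up to 0.287). Of the 14 tested chemokine and chemokine receptor genes 3 were higher, Cxcr4 and Cxcr6 among them, and Ccl3 was the 1 lower.

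Ccl3, an inflammatory chemokine made on T-cell activation, was 444, 739 and 682 CPM in ctr and 246, 258 and 195 CPM in cko members. All cko samples lay below all ctr samples (log2 -1.41, SE 0.19, adjusted p = 8.4e-04, edgeR). Ccl5 was 9756, 9157 and 10728 CPM in ctr and 15440, 11223 and 13636 CPM in cko members, higher in cko without overlap, yet it did not pass the test (log2 0.44, SE 0.13, adjusted p = 0.0794, edgeR). Ccl4 overlapped between the groups and was not called (log2 -0.81, adjusted p = 0.619, edgeR).

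Il12rb2, a chain of the receptor for interleukin-12, was 63.2, 44.5 and 52.5 CPM in ctr and 129, 126 and 103 CPM in cko members (log2 1.11, SE 0.21, adjusted p = 0.00891, edgeR). The Il12rb2 call was lost in 2 of 14 alternatives (adjusted p up to 0.1075, edgeR). These were at most 5 members of a clonotype per sample and at least 2 Gzmk UMIs per member. Ifngr1, a chain of the interferon gamma receptor and the only gene called of 13 tested cytokine receptor genes, was higher by 0.77. Il7r was 102, 85.5 and 30.0 CPM in ctr and 159, 147 and 159 CPM in cko members. Those values did not overlap, but ctr replicate 3 was far below the other ctr samples and the gene was not called (log2 1.14, adjusted p = 0.274, edgeR). Gpr18, a G protein-coupled receptor of lymphocytes, rose by 2.09 and Klri2, a killer-cell lectin-like receptor, by 1.96. The call of Gpr18 was lost in 5 of 13 alternatives, among them those without ctr replicate 3 and without each cko replicate, and that of Klri2 in 3 of 12, among them those without cko replicate 1 and without cko replicate 3. Cxcr3 (0.93), Ccr2 (1.13), Slamf6 (0.81), Il18r1 (0.20), Socs1 (0.20) and Cd7 (0.34) were not called. Klrg1, S1pr1 and Itgae did not pass the filter on low counts.

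Transcription factors changed in both directions. Eomes was 55.9, 58.2 and 64.3 CPM in ctr and 91.0, 117 and 109 CPM in cko members, without overlap (log2 0.83, SE 0.21, adjusted p = 0.0448, edgeR). Tox was 271, 257 and 310 CPM in ctr and 182, 185 and 173 CPM in cko members, also without overlap (log2 -0.64, SE 0.16, adjusted p = 0.0458, edgeR). Both calls lay close to the threshold and were lost in 11 of 14 alternatives, among them those without any 1 of the samples but ctr replicate 2 (adjusted p up to 0.176 for Eomes and 0.332 for Tox). Rora, a nuclear receptor, was 38.9, 27.4 and 17.2 CPM in ctr and 182, 88.1 and 120.0 CPM in cko members (log2 2.20, SE 0.33, adjusted p = 0.0054, edgeR). Lef1, a partner of beta-catenin related to Tcf7, was 10.9, 17.1 and 9.65 CPM in ctr and 41.7, 32.3 and 47.4 CPM in cko members (log2 1.81, adjusted p = 0.0215, edgeR), the 1 gene called of 13 tested stem-like and memory genes. The Lef1 call was lost in 6 of the 10 alternatives in which it was tested, those without ctr replicates 1 or 3, without each cko replicate and with the replicate block (adjusted p up to 0.287). Tbx21 and Zeb2, factors of short-lived effector cells, were not called (log2 -0.12 and -0.36).

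The cytotoxic genes gave no call, with 0 of 18 tested higher and 0 lower and a list median of 0.235. Gzmb was 1142, 558 and 855 CPM in ctr and 2126, 1001 and 1077 CPM in cko members, and the groups overlapped (log2 0.70, SE 0.43, adjusted p = 0.574, edgeR). Prf1 (0.28), Gzma (-0.20), Nkg7 (-0.08), Klrd1 (0.19), Klrk1 (-0.12) and Klrc1 (0.40) were not called either. The secreted cytokines Ifng (-0.63) and Tnf (-0.69) were lower in cko by their fitted values and not called. Stx11, a syntaxin needed for the release of cytotoxic granules, stands outside that list. It was 13.4, 3.42 and 15.0 CPM in ctr and 60.6, 67.5 and 80.9 CPM in cko members (log2 2.47, SE 0.34, adjusted p = 8.4e-04, edgeR).

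Of 17 tested checkpoint and exhaustion genes Tox and Nr4a2 were lower and 0 were higher, and Pdcd1 (0.33), Lag3 (0.36) and Tigit (-0.38) were not called. In the effector list Eomes, Il12rb2 and Bhlhe40, a stress-induced repressor that sustains effector function, were the 3 higher of 17. The interferon gamma response list had 0 calls of 21, with 20 positive fold changes and a median of 0.29, and the type I interferon list 0 of 18. Hif1a, the hypoxia-inducible factor, was the only call of 18 hypoxia and glycolysis genes, higher by 0.90. Icos, a costimulatory receptor that rose by 1.23, and Csf1, a macrophage growth factor that rose by 1.33, were picked after their values were seen. Igkc, an immunoglobulin light chain gene not made by T cells, rose by 2.07 in members. The summed B and plasma cell markers were 70.9 to 85.5 CPM in ctr and 84.1 to 420 CPM in cko members, and 98.8 to 144 and 38.4 to 663 CPM in Lyz2-high cells, and their part in other differences was not tested.

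**Figure D3:**
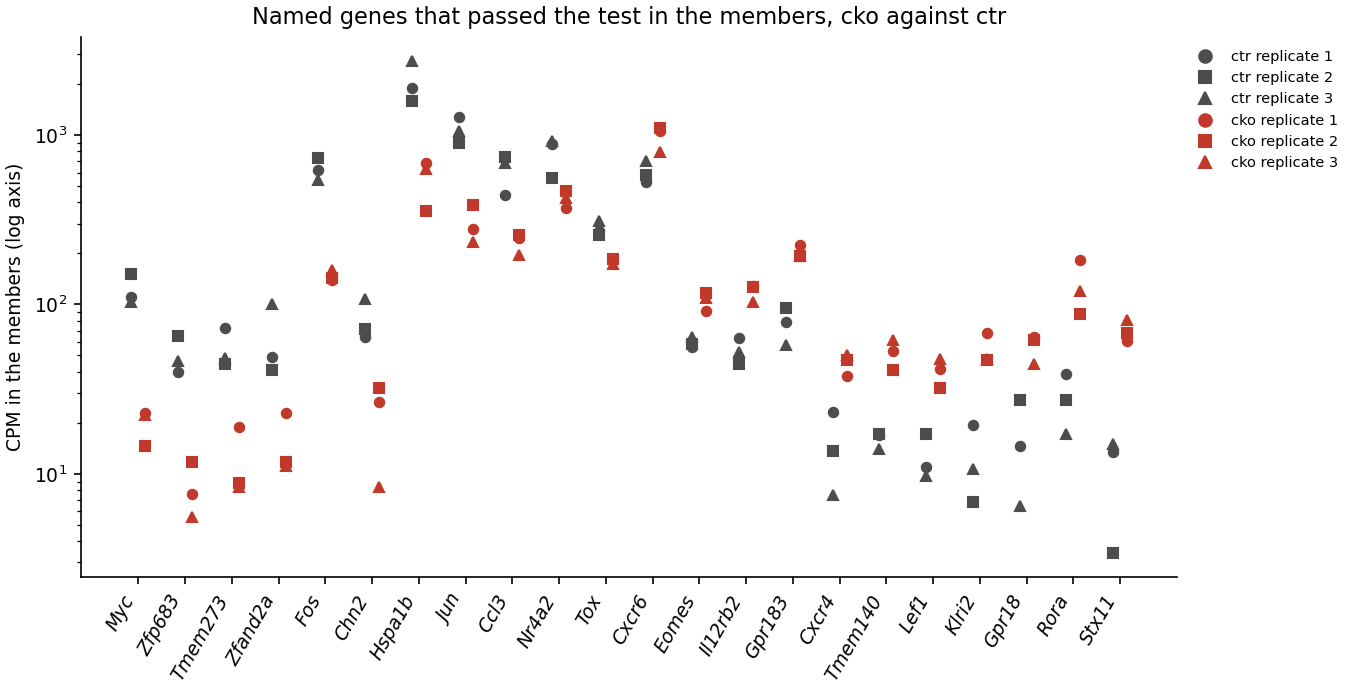
Level in members (CPM on TMM-scaled library sizes, log axis) of 22 named genes called between cko and ctr, 1 point per sample. In each gene the 3 ctr and 3 cko samples do not overlap, from Stx11 (3.42 to 15.0 CPM against 60.6 to 80.9 CPM) to Jun (903 to 1283 CPM against 234 to 388 CPM).

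Values in other CD8 T cells of the same tumours are set side by side, since they share the mice with the members. Most of the genes set side by side were named for their difference in members, a choice that favours larger values there. Myc differed by -2.55 in members, -1.83 in Ly6c2-positive and -1.65 in Havcr2-positive cells. The interaction of Myc was not called (-1.09, adjusted p = 0.299 against all other CD8 T cells, edgeR). Zfp683 differed by -2.48, -2.07 and -2.20 and Chn2 by -1.92, -1.95 and -1.86 in the same order. Of 9428 genes tested in Ly6c2-positive cells 3.83% were called between cko and ctr, and of 10510 in Havcr2-positive cells 4.58%, and of 11995 in all other CD8 T cells 2.98%. Tox differed by -0.64 in members, -1.11 in Ly6c2-positive and -1.17 in Havcr2-positive cells, and Eomes by 0.83, 0.12 and 0.28, but neither interaction passed the test (adjusted p = 0.766 and 0.832 against all other CD8 T cells, edgeR).

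Whether the cko against ctr difference was unlike in members and in all other CD8 T cells was tested as an interaction. Of 11009 genes 12 were called (0.109%, edgeR), 5 with a more positive value in members (0.0454%) and 7 with a more negative one (0.0636%). The count was 2 by DESeq2, 6 without cko replicate 3, 20 without ctr replicate 1 or ctr replicate 3, and 23 without cko replicate 1. Ccl3 fell further in members, with an interaction of -0.99 (SE 0.16, adjusted p = 1.77e-06, edgeR), and -1.41 in members and -0.46 in other CD8 T cells. Egr1, a zinc finger factor induced within minutes of stimulation, differed by -1.02 (-1.34 and -0.29), Fos by -0.80 (-2.09 and -1.28), Hspa1b by -0.73 and Hspa1a by -0.64. Stx11 rose further in members, by 1.66 (SE 0.35, adjusted p = 0.00238, edgeR), with 2.47 and 0.80. Klrg1, a receptor of short-lived effector cells, differed by -2.81. In members it had 18, 5 and 22 UMIs (20.7, 15.5 and 22.4 CPM) in the ctr samples. In the cko samples it had 3, 2 and 3 UMIs (10.5, 5.44 and 7.80 CPM). In other CD8 T cells Klrg1 went the other way, from a mean of 5.97 CPM in ctr to 14.4 CPM in cko samples. That rise was 1.30 on the log2 scale and was not called (adjusted p = 0.126, edgeR). Of the 12 interaction calls only that of Trav10n held in all 10 alternatives. By DESeq2 the calls of Egr1, Fos, Hspa1a, Hspa1b, Stx11 and Klrg1 were lost, and that of Ccl3 held. Without cko replicate 3 those of Ccl3, Egr1, Fos, Hspa1a, Hspa1b and Stx11 were lost. Without ctr replicate 1 those of Fos, Hspa1a and Hspa1b were lost, and without cko replicate 2 that of Klrg1. Fos was lost in 6 alternatives and Hspa1a in 4, both also with cko replicates 1 and 3 added together.

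The remaining calls were of less certain footing. Gzmg differed by -7.97 on the log2 scale, but 160 of its 161 UMIs in members came from ctr replicate 1, and without that sample the value was 1.68. Trbv12-2, Trav10n and Trav5-4 are receptor V segments, whose counts follow clone sizes, and Sdf4, a calcium-binding protein gene, differed by 0.69. Against Ly6c2-positive cells alone 3 of 8869 genes were called (0.0338%, edgeR), 1 more positive in members (0.0113%) and 2 more negative (0.0226%). They were Hspa1b (-0.77, adjusted p = 7.35e-04), Egr1 (-1.08, adjusted p = 0.0152) and Trbv12-2 (1.65). The Hspa1b call held in all 10 alternatives, Egr1 was lost in 6, among them those without ctr replicates 1 or 2 and without cko replicates 1 or 3, and Trbv12-2 was lost without ctr replicate 1. That count was 1 without ctr replicate 1 and 5 without ctr replicate 3. Ccl3 was not called there (-0.03, SE 0.50), with -1.24 in Ly6c2-positive cells, and neither were Fos (-0.83, adjusted p = 0.908, edgeR) and Stx11 (1.81, adjusted p = 0.0527, edgeR). In cells that met every condition but Gzmk, Ccl3 had means of 496 CPM in ctr and 130 CPM in cko samples, without a test. The means in members, scaled in the same way, were 569 and 223 CPM. The lower Ccl3 in cko was thus not particular to the members.

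**Figure D4:**
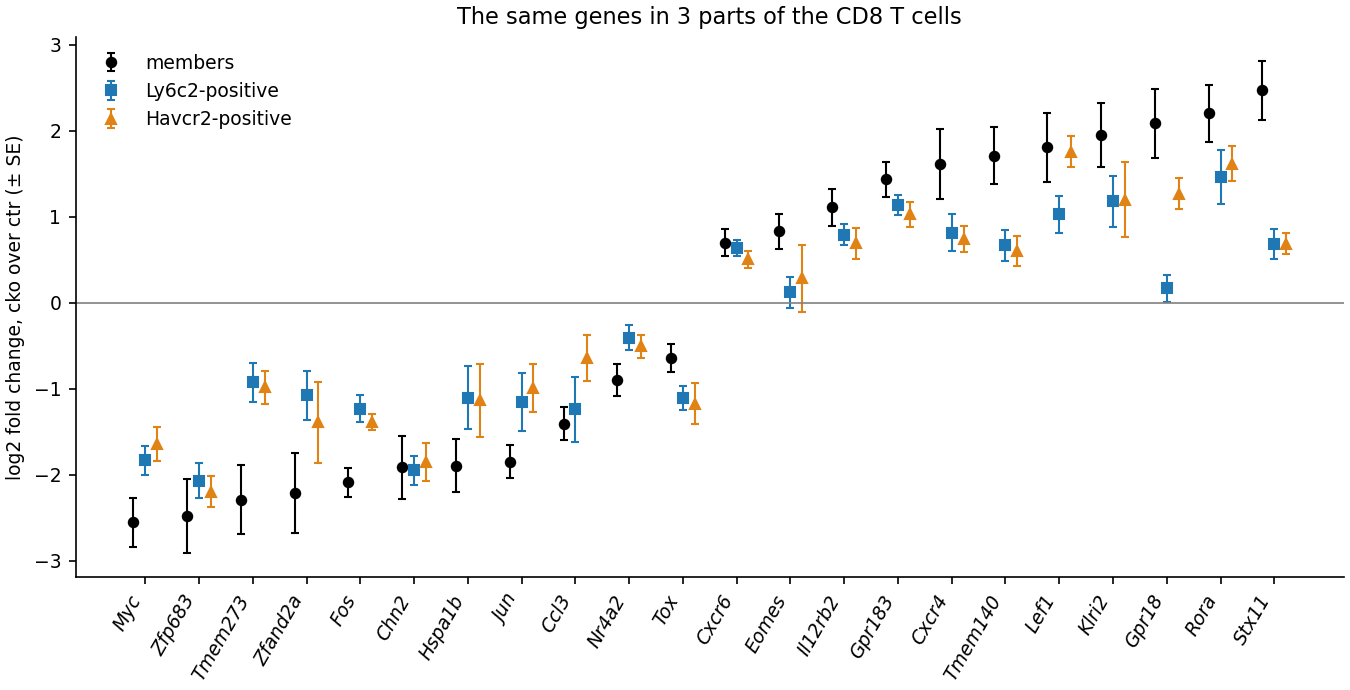
Log2 fold change, cko against ctr, with its SE (bars) for the named genes in members, Ly6c2-positive and Havcr2-positive CD8 T cells. Fos (-2.09, -1.23 and -1.39) and Stx11 (2.47, 0.68 and 0.69) are farther from 0 in members, while Chn2 (-1.92, -1.95 and -1.86) lies close together in all 3 populations. The genes were picked by their calls in members, a choice that favours larger values there. Against Ly6c2-positive cells the interactions of Fos and Stx11 were not called.

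Members also varied among themselves with their Gzmk count, which is given without a test because the split uses the gate's gene. In members with 1 Gzmk UMI, Eomes was 32.5 CPM, and in those with at least 2 it was 102 CPM. Ccl5 was 7114 and 13220 CPM, Cd7 39.3 and 91.2 CPM, and Tox 172 and 235 CPM in the same order. These means are over 6 samples, and Eomes, Ccl5 and Cd7 were higher at 2 or more Gzmk UMIs in 6 of 6 samples and Tox in 5 of 6. Gzmb had means of 1205 and 957 CPM, but it was lower at 2 or more Gzmk UMIs in only 3 of 6 samples. Since cko members held more Gzmk per UMI, Eomes and Gzmk levels moved together both within members and between the groups, and the part of one in the other was not tested.

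The receptor libraries gave both chains for 462 of the 485 members. Cells were taken as 1 clonotype when V gene, J gene and CDR3 nucleotides matched in both chains. A clonotype was called expanded if at least 3 barcodes of the sample carried it. Expanded clonotypes held 91.6, 75.0 and 93.4% of members in ctr and 79.6, 87.7 and 75.5% in cko samples. The groups overlapped (86.7% ± 10.1 and 80.9% ± 6.23, SD, n = 3 each; exact permutation p = 0.5). At an equal number of 36 cells, the expected number of clonotypes was 18.6, 18.0 and 16.2 in ctr and 15.2, 17.9 and 18.8 in cko samples, with an exact permutation p of 0.8. Cells of 1 clonotype descend from 1 cell and are not independent samples of a tumour.

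Most members belonged to clonotypes that also held cells of the other CD8 populations. The share of members whose clonotype also held Havcr2-positive cells was 82.7% ± 9.91 in ctr and 79.8% ± 2.56 in cko samples (SD, n = 3 each; exact permutation p = 0.7). For Ly6c2-positive cells the means were 85.1 and 81.0% (exact permutation p = 0.4), for cycling cells 77.3 and 75.9%, and for Tcf7-positive cells 65.8 and 61.3% (exact permutation p = 0.8). Larger populations and larger clones are more likely to be shared by number alone, which these shares do not take into account. In ctr replicate 1, the clonotype with most members used TRAV4D-4, TRAJ34, TRBV5 and TRBJ2-7, and 33 of its 225 cells were members, 49 Ly6c2-positive, 77 Havcr2-positive, 30 cycling and 4 Tcf7-positive. In cko replicate 1 the leading clonotype held 1017 cells, of which 17 were members, and the same clonotype in cko replicate 3 held 869, of which 15 were members. In cko replicate 2 it held 54 cells, of which 8 were members.

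The recurrent receptor shown above was found in 2497 cells with both chains, 2475 of them CD8 T cells of the gate, in 11 nucleotide clonotypes. It was singled out after its frequency was seen, so its values are a description. Among members it was carried by 13 of 131 (9.92%), 0 of 36 and 35 of 136 (25.7%) in ctr replicates 1 to 3, and by 17 of 49 (34.7%), 7 of 57 (12.3%) and 17 of 53 (32.1%) in cko replicates 1 to 3. The 0 of 36 in ctr replicate 2 allows a share of up to 8.33%. Among all CD8 T cells the shares were 12.8, 4.26 and 15.4% in ctr and 53.6, 4.66 and 46.1% in cko samples. Cko replicates 1 and 3 were high and share their clonotypes, while cko replicate 2 was near ctr replicate 2. The receptor thus took very different parts of the CD8 T cells in the cko samples, with no common level.

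Within a tumour the receptor was unevenly spread over the populations. In cko replicate 1 it was carried by 34.7% of members, 41.8% of Ly6c2-positive, 64.3% of Havcr2-positive and 14.1% of Tcf7-positive cells, and in cko replicate 3 by 32.1, 32.6, 57.5 and 10.1%. In ctr replicate 3 it was carried by 25.7% of members, 2.4% of Ly6c2-positive and 18.8% of Havcr2-positive cells. In ctr replicate 1 the shares were 9.92, 6.56 and 18.6%. Its share of members was below that of Havcr2-positive cells in ctr replicates 1 and 2 and in cko replicates 1 and 3, and above it in ctr replicate 3 and cko replicate 2. In cells that met every condition but Gzmk, the receptor's share was 17.0, 13.2 and 37.7% in ctr replicates 1 to 3. It was 74.3, 2.63 and 71.1% in cko replicates 1 to 3, and the members lay above these cells only in cko replicate 2. One protein version of the pair, found in 6 samples in 10 nucleotide versions and 2310 cells, accounted for 54 of the 89 members. Altogether 8 protein pairs occurred in members and in more than 1 sample, 1 of them with TRAJ12, TRBV17 and TRBJ2-2 in 10 members and 151 cells of 4 samples, in 5 nucleotide versions.

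**Figure D5:**
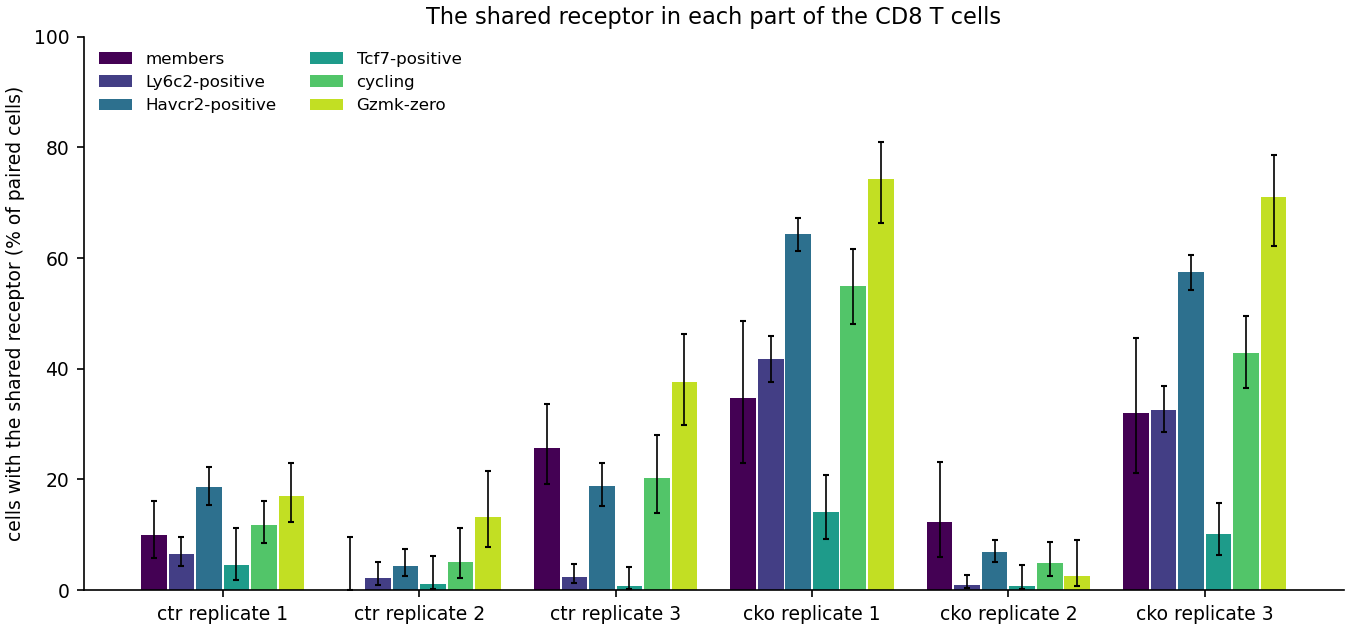
Percent of cells with both receptor chains that carry the Trav16-family, Traj43, Trbv12-1 and Trbj2-5 receptor (y axis), by sample and CD8 population (bars), with 95% Wilson intervals (black lines) that cover counting error only. Cko replicates 1 and 3, which share clonotypes, reach 64.3 and 57.5% of Havcr2-positive cells, and the members lie at 0 to 34.7%.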

How the data were processed

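Deposited UMI counts per gene and barcode of 6 samples, and receptor contig tables, were used. Per the submitters' processing notes the authors used Cell Ranger 7.0.0 and the mm10 (GRCm38) build; the deposited counts are whole numbers with no normalization, and the sources used here do not give the annotation version. The GENCODE vM21 annotation of GRCm38 held 32158 of the 32285 gene IDs and gave the coordinates. Members and gene lists were chosen with earlier results of these data known.

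Counts were summed per sample and population, so a sample is the replicate. Genes were tested in R 4.3.3 with edgeR 4.0.16 (quasi-likelihood test, TMM, filterByExpr, robust, Benjamini-Hochberg over all genes tested, threshold 0.05), with the sample as block between populations, and with DESeq2 1.42.0 as an alternative. The edgeR script was tested on simulated data. Single values were compared by two-sided exact permutation tests over samples. The named genes were 34 fixed genes, and the 8 largest calls in each direction that had a mean of at least 20 CPM (50 CPM between populations) and did not overlap between groups, or differed in the same direction in 6 of 6 samples. Segment genes, sex-linked genes and the 9 genes of the gate were left out of that rule. Lyz2-high cells are kept barcodes with at least 5 Lyz2 UMIs, no receptor and no Cd3e. Replicate numbers paired no samples: deviations of same-numbered samples correlated at 0.018, -0.009 and 0.035. Contigs were not re-aligned, and each chain is the contig with most UMIs. One named gene is not reported here.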

Additional observations from a re-analysis of the deposited data

Results flagged for a closer look

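Of 32 ratios of members to another population over 6 samples, 3 had 1 sample far from the others, and chance marks about 1 in 20 such groups. Ccl5 in members against Ly6c2-positive cells had a log2 ratio (CPM + 1) of 1.49 in ctr replicate 2, while the other samples lay between 0.677 and 0.946. Eomes against Havcr2-positive cells was 0.55 in ctr replicate 3 and 1.51 to 1.82 in the others. Cd7 against Havcr2-positive cells was 0.134 in cko replicate 2 and 1.4 to 1.75 in the others.

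By the interaction test (edgeR), 12 genes had a cko against ctr difference in members unlike that in all other CD8 T cells. Values are the log2 difference in members less that in the other cells. Of the 12 calls only that of Trav10n held in all 10 alternatives. More negative in members were Gzmg (-7.97), Klrg1 (-2.81), Egr1 (-1.02), Ccl3 (-0.986), Fos (-0.799), Hspa1b (-0.726) and Hspa1a (-0.638). More positive were Trav10n (11.3), Trav5-4 (3.76), Stx11 (1.66), Trbv12-2 (1.37) and Sdf4 (0.687). Trav10n had 6 and 18 UMIs in members of cko replicates 2 and 3 and 0 in the other members, so its value has no interpretable size. Against Ly6c2-positive cells alone, Egr1 (-1.08), Hspa1b (-0.775) and Trbv12-2 (1.65) differed.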

How the results depend on the processing

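The share of members among CD8 T cells was lower in cko in each alternative, with differences of -6.63 to -3.06 percentage points. As a share of kept barcodes the difference of -0.710 turned to 0.0381 after thinning to 2000 UMIs. The difference in expanded clonotypes, -5.73 percentage points, was 0.380 when expanded meant at least 10 barcodes. The difference in expected clonotypes, -0.277, was 0.212 with cko replicates 1 and 3 added together and ranged from -1.03 to 0.776 leaving out 1 sample at a time. The difference in clonotypes shared with Havcr2-positive cells, -2.90 percentage points, ranged from -8.14 to 1.71 in the same way. The 89 genes called between cko and ctr became 54 by DESeq2, 27 at Gzmk of at least 2 UMIs, 39 with at most 5 members of a clonotype, 263 with no filter on low counts, and 18 to 158 leaving out 1 sample. Against Ly6c2-positive cells the 225 genes became 140 by DESeq2, 364 with no filter, and 130 to 240 leaving out 1 sample, and against Havcr2-positive cells the 635 became 412 to 598. The 12 interaction calls became 2 by DESeq2 and 6 to 23 leaving out 1 sample, and the 3 against Ly6c2-positive cells 12 with no filter and 1 to 5 leaving out 1 sample. With the replicate number as a block 63 genes were called, 54 of them among the 89. The numbers share no source in the labels. Of 23 named genes called between cko and ctr, Ccl3, Fos, Jun, Myc, Rora and Stx11 kept their call in every alternative in which they were tested, which was 13 for Stx11 and 14 for the others. Among named genes that were not called, the sign also turned for some settings: Gzma was 0.12 with cko replicates 1 and 3 added, 0.77 without high doublet scores and 0.52 at Gzmk of at least 2 UMIs. Klrk1 was 0.042 and Socs1 -0.042 with at most 5 members of a clonotype. Over the fits that leave out 1 sample, Gzma ran from -1.80 to 0.33, Klrk1 from -0.23 to 0.071, Nkg7 from -0.15 to 0.022, Socs1 from -0.032 to 0.38, Tbx21 from -0.24 to 0.042, Tigit from -0.66 to 0.030, Gzmg from -13.9 to 1.68 and Trav5-4 from -5.49 to 4.37. The cause of these shifts was not tested. Members numbered 37 to 60 in 4 of the 6 samples, which limits the genes that could be tested.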
